A study of Homo sapiens with 12 samples.

Results

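PLIN2, CPT1A, ACADVL, PDK4, FABP1, ACSL3, AGPAT9 and ANGPTL4 are 8 genes of lipid storage and fatty acid oxidation, most of them known targets of the PPAR receptors, and they are 8 of the 57736 genes in the count tables and of the 27326 genes with a count in at least 1 library. They were taken by gene symbol, and the counts of all 3′ regions of a gene were summed. The list was chosen for the known roles of its genes and with their response to HME in these same counts known, so the contrasts of HME against control in each line, and of the lines with each other, are given for them as a description without a test. RNA was sequenced from HepG2 cells, an established line from a human hepatocellular carcinoma, and Ls174 cells, an established line from a human intestinal carcinoma, both wild type by their labels. Treated cells of both lines were incubated for 24 h with HME, an extract of the red marine macroalga Hypnea musciformis, at 0.7 mg/ml by the labels. The study's methods state a slightly higher concentration, chosen from a growth inhibition assay. Control cells were labelled as untreated and no vehicle is named. There were 3 biological replicates in each of the 4 groups, giving 12 libraries, and each group is a single cell line, so that the spread is that between cultures of 1 line.

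PPARA, PPARD and PPARG are nuclear receptors that bind fatty acids and their derivatives. With a retinoid X receptor as partner, they bind DNA at a direct repeat of a short half-site separated by 1 base (DR1) and raise the transcription of genes that store, transport and oxidise fatty acids. In liver cells PPARA is the main form and drives the fasting response, in which fatty acids enter mitochondria through CPT1A and are oxidised by enzymes such as ACADVL, while PDK4 closes the pyruvate dehydrogenase complex to sugar carbon. In intestinal epithelium the same receptors act on dietary lipid. PLIN2 coats the lipid droplets of nearly every cell type, and its protein is widely used as a measure of stored fat.

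Total counts ran from 1790841 (HepG2 HME 3) to 3656662 (HepG2 control 1), so 3 counts, the floor used here, came to between 0.82 and 1.68 CPM, the count per library scaled to a fixed total. HepG2 control 2 and Ls174 control 1 stood apart from the other controls of their lines and are named where they bear on a value. The 6 hepatocyte markers summed to between 9750 and 17600 CPM in HepG2 libraries and to at most 114 CPM in Ls174, and the 6 intestinal markers to between 287 and 374 CPM in Ls174 and between 56.7 and 193 CPM in HepG2. The intestinal sum in HepG2 was nearly all VIL1. Its control libraries held 188, 52.9 and 169 CPM in HepG2 and 42.3, 79.2 and 67.1 CPM in Ls174. CDX1, CDX2 and LGALS4 were higher in every Ls174 library than in any HepG2 library. MUC2 and CEACAM5 reached at most 2.17 and 6.05 CPM in Ls174. HepG2 HME 2 held 962 CPM of the 6 mesenchymal markers, against at most 15 CPM in the other HepG2 libraries. Nearly all of it came from COL1A1 (551 CPM) and COL1A2 (408 CPM). In that library COL3A1 stood at 1.77 CPM, THY1 at 0.707 CPM and DCN and LUM at 0. Blood markers summed to 92.2 to 553 CPM in HepG2 and at most 4.61 CPM in Ls174, nearly all from LYZ in HepG2, with PTPRC and CD3E at 0, and endothelial markers to at most 4.36 CPM. In bulk RNA, fewer cells of a type cannot be told apart from less RNA per cell.

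The sequences that could carry the receptor's sites are shown first, as the genes are grouped by their link to PPAR. The DR1 consensus, the half-site AGGTCA repeated in the same direction after 1 base of any kind, was searched on both strands of GRCh37 within 5000 bases of each gene's start with at most 1 mismatch. A match was present at 2 of the 8 genes, ACSL3 and PDK4, while 9.5% of 19889 protein-coding genes had one. The site of ACSL3 lay at chr2:223729186-223729198 on the plus strand, 3438 bases inside the gene, and that of PDK4 at chr7:95230541-95230553, also read on the plus strand, at position -4719 from its start. They are printed with 10 bases on either side, the matched letters in capitals.
ACSL3: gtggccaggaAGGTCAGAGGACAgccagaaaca
PDK4: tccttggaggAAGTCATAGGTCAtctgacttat
No DR1 match with at most 1 mismatch lay in the 300-base RefSeq promoters of any of the 8 genes, and 0.3% of 35116 RefSeq promoters (GRCh38) had one. The starts of these promoters are those of RefSeq, while the wider search used the canonical transcripts of another annotation. The starts need not coincide, so a gene's promoter here may be that of another start. The promoters of PLIN2 and FABP1 are printed because PLIN2 leads the group and FABP1 was the single gene of the 8 with an exact half-site (AGGTCA, either strand) in that window, which 13.8% of promoters had. Each runs from 250 bases before the start to 30 after it, with the matched letters in capitals: the GC box (GGGCGG, either strand) for PLIN2, and the half-site for FABP1. PLIN2 lies on the minus strand at chr9:19127463-19127742 and FABP1 on the minus strand at chr2:88128033-88128312.
PLIN2: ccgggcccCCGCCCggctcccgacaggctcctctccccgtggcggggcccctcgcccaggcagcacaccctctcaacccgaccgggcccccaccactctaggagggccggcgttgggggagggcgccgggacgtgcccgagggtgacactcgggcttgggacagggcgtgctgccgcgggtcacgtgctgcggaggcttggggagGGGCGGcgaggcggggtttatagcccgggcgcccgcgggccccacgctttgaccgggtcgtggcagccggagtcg
FABP1: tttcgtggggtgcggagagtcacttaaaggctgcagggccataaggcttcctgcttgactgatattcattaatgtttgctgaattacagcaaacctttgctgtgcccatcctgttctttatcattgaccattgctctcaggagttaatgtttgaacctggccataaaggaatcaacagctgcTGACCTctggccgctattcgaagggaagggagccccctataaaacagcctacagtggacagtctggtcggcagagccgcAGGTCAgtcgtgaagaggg
The GC boxes of PLIN2 began at positions -242 and -45 from the start, and the half-sites of FABP1 at -68 on the minus strand and at 12 on the plus strand. A GC box was present in promoters of 6 of the 8 genes and in 45.0% of all promoters. An AP-1 site (TGACTCA) was found in ACADVL alone of the 8, against 4.9% of promoters, and an ETS site (CCGGAA) or a CRE (TGACGTCA) in none, against 17.2% and 1.8%. These are matches of letters and show neither binding nor its absence.

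PLIN2 was higher with HME in both lines by a similar factor. It stood at 468, 326 and 547 CPM in the HepG2 control libraries and at 3270, 3030 and 2890 CPM with HME, and at 38.4, 54.3 and 64.3 CPM in Ls174 control and 430, 339 and 340 CPM with HME. Every treated library exceeded every control library of its line. The log2 fold change was 2.80 (SE 0.34, a 6.95-fold difference) in HepG2 and 2.81 (SE 0.25, 7.01-fold) in Ls174, and the Ls174 response minus the HepG2 response was 0.04 (SE 0.40) on the log2 scale. Ordered from the highest log2 fold change to the lowest, PLIN2 ranked 146 of 11343 genes tested in HepG2 and 18 of 11319 in Ls174. Untreated, PLIN2 was lower in Ls174 than in HepG2, with a log2 difference of -3.12 (SE 0.38, 8.68-fold). In order of level, Ls174 control was lowest, Ls174 HME 7.07-fold above it, HepG2 control next and HepG2 HME highest, 6.86-fold above HepG2 control. Ls174 with HME (370 ± 52.5 CPM, SD, n = 3) and untreated HepG2 (447 ± 112 CPM, SD, n = 3) overlapped in range. Without HepG2 HME 2, the library high in COL1A1 and COL1A2, the log2 fold change in HepG2 was 2.82, and without HepG2 control 2 it was 2.66. Without Ls174 control 1 it was 2.64 in Ls174.

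**Figure D1:**
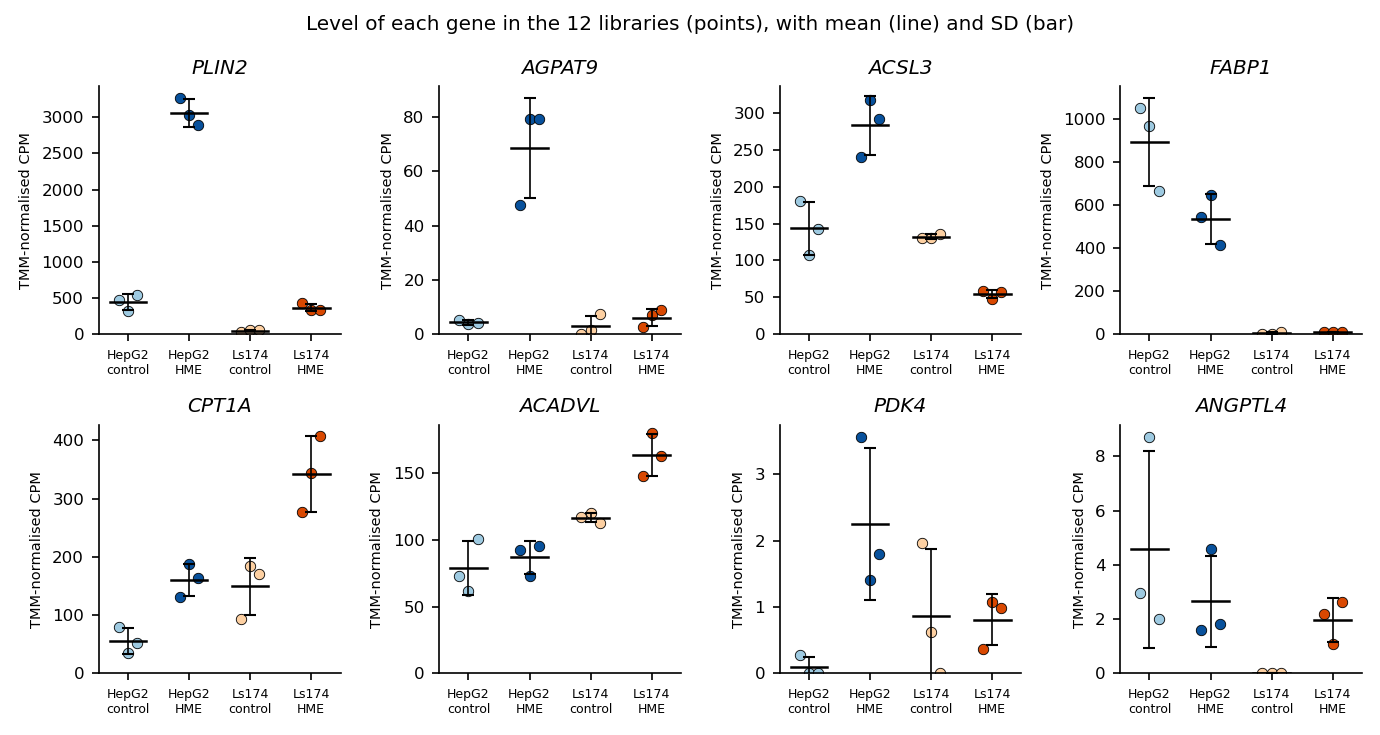
Level of each of the 8 genes in the 12 libraries, in CPM after TMM scaling (vertical axes, linear from 0, one scale per panel), with points for libraries, a line for the mean of 3 and a bar for the SD. PLIN2 is higher with HME in both lines, ACSL3 is higher in HepG2 and lower in Ls174, and PDK4 and ANGPTL4 stay below 10 CPM.

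Of the 8 genes, 6 had enough counts for the fit in each line. In HepG2, 3 of these 6 (PLIN2, CPT1A and AGPAT9) had an adjusted p under 0.05 in the higher direction, where 2.77% of all genes tested did, and 0 in the lower direction, where 0.538% did. In Ls174, PLIN2 passed in the higher direction, as 0.318% of genes tested did, and ACSL3 in the lower, as 0.866% did. With the study's thresholds, a log2 change over 0.58 in either direction with p under 0.05 before adjustment, 4 of 6 passed in HepG2 against 22.2% of genes tested, and 3 of 6 in Ls174 against 12%. The HME and control libraries did not overlap for 4 of 6 in HepG2 (PLIN2, CPT1A, AGPAT9 and ACSL3), against 30.8% of genes tested, and for 4 of 6 in Ls174 (PLIN2, CPT1A, ACADVL and ACSL3), against 23.9%. The response differed between the lines past an adjusted p of 0.05 for ACSL3, as for 0.644% of genes tested. Untreated Ls174 differed from untreated HepG2 at that threshold in the higher direction for CPT1A (9.33% of genes tested) and in the lower direction for PLIN2 and FABP1 (14.2%). With a library left out, CPT1A kept its place past the threshold in HepG2 in 1 of 6 fits (without control 2), and in Ls174 PLIN2 kept it in 2 of 6 (without control 1 or control 3) and ACSL3 in 1 of 6 (without control 1), while PLIN2 and AGPAT9 kept it in 6 of 6 in HepG2. ACSL3 kept it in 10 of 12 fits of the difference between responses (lost without Ls174 HME 2 or HME 3), and CPT1A between the untreated lines in 2 of 6 (without HepG2 control 1 or Ls174 control 1). The genes were chosen with these contrasts known, so nothing is read from these counts. The same holds for the fits with a library left out, which are no support for a response.

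**Figure D2:**
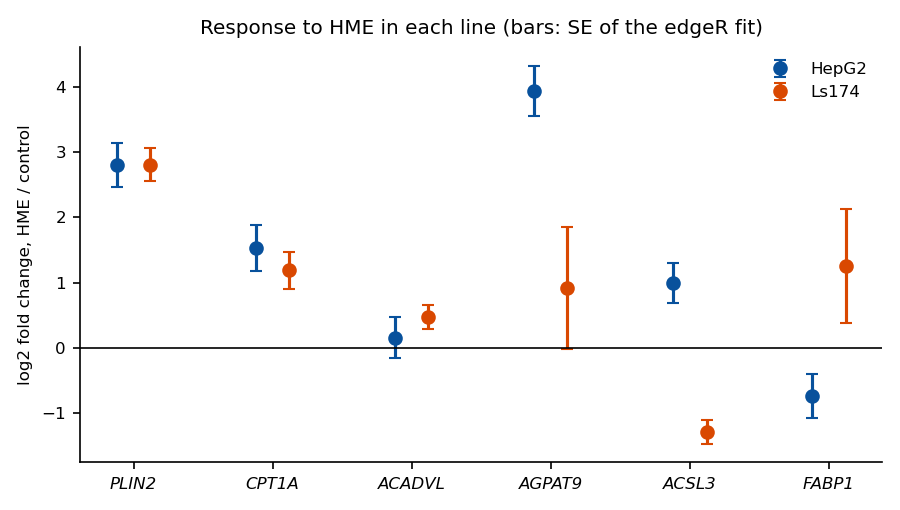
Log2 fold change of HME over control (vertical axis) for the 6 genes that could be fitted, in HepG2 (blue) and Ls174 (orange), with bars for the SE of the edgeR fit on 6 libraries per line. PLIN2 and CPT1A have similar values in the lines (2.80 and 2.81 for PLIN2), and ACSL3 lies at 1.00 in HepG2 and -1.28 in Ls174.

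PLIN2 (ENSG00000147872) is transcribed from the minus strand of chromosome 9. In hg19, 92.42% of its counts over all libraries fell in a region of 683 bases at its last exon, chr9:19115563-19116245. Of these bases, 487 belong to the 3′ UTR of the canonical transcript in that exon, and the rest lie beyond the end of that transcript. A region in intron 4 (chr9:19123036-19123538) held 4.21% and a region in intron 3 (chr9:19125307-19125630) 2.2% of its counts. The split of counts over these regions was not used to choose the gene, and it was compared between groups by an exact two-sided permutation test, which with 3 libraries against 3 cannot go below 0.1. The share in intron 3 was 0.46%, 0.574% and 0.812% in HepG2 control and 2.53%, 3.02% and 2.35% in HepG2 HME, which did not overlap. It was 0%, 0% and 0.398% in Ls174 control, on 78 to 251 PLIN2 counts, and 0.593%, 0.839% and 1.84% in Ls174 HME. In both lines the exact p was 0.1, the smallest the design allows, and 0.5 after Benjamini-Hochberg adjustment over the 10 shares and lines tested, so neither passes the threshold. The difference was 2.02 percentage points in HepG2 (0.615% ± 0.18 against 2.63% ± 0.347, SD, n = 3) and 0.957 in Ls174. For the control libraries of Ls174 the counts were few, and the 95% Wilson interval of the library with 0 of 78 counts reaches 4.69%, above all 3 treated values. The share in intron 4 overlapped between groups in both lines (exact permutation p = 0.6 in HepG2 and 1.0 in Ls174, n = 3). The region at the last exon held 92.8% ± 1.97 in HepG2 control and 91.8% ± 0.419 with HME, and the groups overlapped in both lines. The rest of the text uses the sum over all regions.

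**Figure D3:**
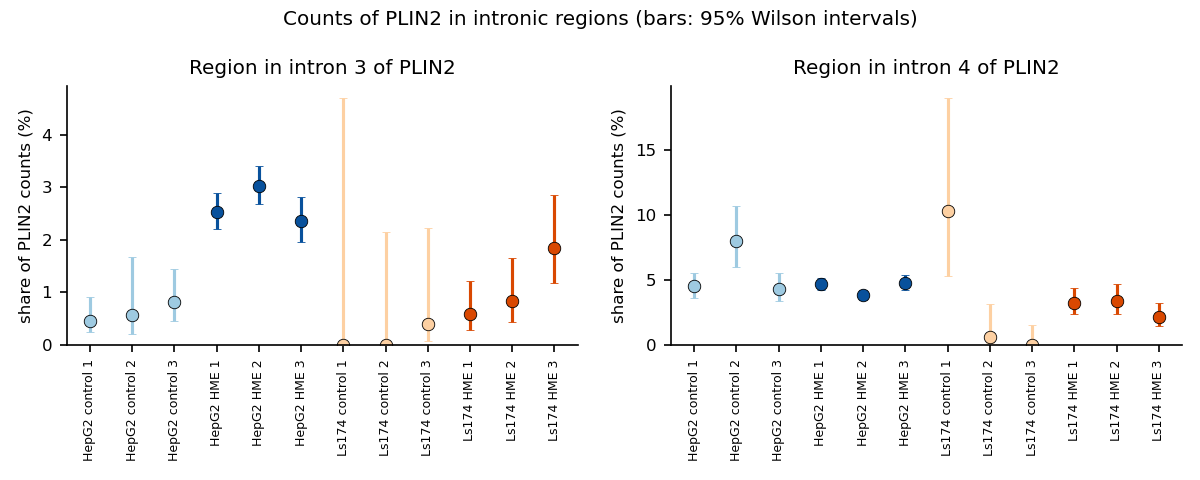
Share of the PLIN2 counts of each library (vertical axes, percent) that fell in the region in intron 3 (left) and in intron 4 (right), with bars for 95% Wilson intervals, which cover counting error only. In intron 3 the HepG2 HME libraries lie at 2.35% to 3.02% and the HepG2 controls at 0.46% to 0.812%, while in intron 4 the groups overlap.

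CPT1A, the outer-membrane carnitine palmitoyltransferase that controls the entry of long-chain fatty acids into mitochondria, was higher with HME in both lines. HepG2 control libraries held 79.1, 35.5 and 52.9 CPM and treated ones 131, 187 and 163 CPM. Ls174 libraries held 93.4, 184 and 171 CPM in control and 277, 344 and 407 CPM with HME. Neither pair of groups overlapped. On the log2 scale HME exceeded control by 1.53 (SE 0.35, 2.90-fold) in HepG2 and 1.19 (SE 0.28, 2.29-fold) in Ls174, with a difference of -0.31 (SE 0.47) between the lines. Untreated Ls174 held 2.62-fold more than untreated HepG2 (log2 difference 1.39, SE 0.41), so CPT1A ran opposite to PLIN2 between the untreated lines. HepG2 with HME (160.0 ± 28.1 CPM, SD, n = 3) overlapped with untreated Ls174 (149 ± 48.8 CPM). HepG2 control 2 and Ls174 control 1 were the lowest libraries of their groups. Without the former the HepG2 value was 1.34, and without the latter the Ls174 value was 0.96. In hg19, 97.76% of the counts lay at chr11:68521891-68525111, a region at exon 19, the last, that reaches past the end of the canonical transcript.

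ACADVL encodes the very-long-chain acyl-CoA dehydrogenase, which catalyses the first step of the mitochondrial oxidation cycle. Its HepG2 libraries held 73.1, 61.7 and 101 CPM in control and 92.6, 72.8 and 95.5 CPM with HME, which overlap. Ls174 libraries held 117, 120 and 113 CPM in control and 148, 180 and 163 CPM with HME, which do not. Their log2 fold changes were 0.16 (SE 0.31) in HepG2 and 0.48 (SE 0.18, 1.40-fold) in Ls174. The main region of ACADVL (chr17:7127799-7128789, 97.73% of its counts) shares 327 bases with a region of DVL2 on the opposite strand. DVL2 had fewer counts than ACADVL in all 12 libraries (841 against 3610 in all), and how the counting treated strand is not given in the sources used here.

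PDK4, a kinase that inhibits the pyruvate dehydrogenase complex, was close to the counting floor and was not fitted. Its counts were 1, 0 and 0 in HepG2 control and 9, 4 and 3 in HepG2 HME, and 4, 2 and 0 in Ls174 control and 1, 3 and 3 in Ls174 HME. In HepG2 the ratio of the pooled levels in CPM, HME to control, was 18.1 with an exact 95% interval of 2.81 to 759, from 16 counts against 1. In Ls174 it was 1.24 (0.357 to 4.47), from 7 counts against 6. These intervals cover counting error only and not the spread between cultures.

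ANGPTL4, a secreted inhibitor of lipoprotein lipase, was also too low to fit. HepG2 control libraries held 11, 14 and 5 counts and treated ones 4, 13 and 3, a ratio of 0.754 (exact 95% interval 0.406 to 1.37). Ls174 control libraries held 0 counts each and treated ones 6, 3 and 8, a ratio of 6.03 when the 3 controls together are set at the floor of 3 counts. No interval was computed for that ratio. So ANGPTL4 was seen in all 3 treated Ls174 libraries and in no control, and the HepG2 groups overlapped at low levels. The region of the antisense gene RAB11B-AS1 lies wholly within that of ANGPTL4 (chr19:8438589-8439454). It had more counts than ANGPTL4 in 9 of 12 libraries (125 against 67 in all). RAB11B-AS1 held 22, 10 and 10 counts in HepG2 control and 2, 1 and 10 with HME. In Ls174 it held 2, 9 and 14 counts in control and 13, 15 and 17 with HME. How the counting treated strand is not given in the sources used here, and whether counts of one gene were assigned to the other was not tested.

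AGPAT9 (named GPAT3 in current annotation) encodes an enzyme of the endoplasmic reticulum that adds the first fatty acid to glycerol 3-phosphate on the route to stored triglyceride. It was the gene of the 6 with the highest log2 fold change in HepG2, where 5.38, 3.74 and 4.04 CPM in control stood against 47.5, 79.2 and 79.3 CPM with HME. This was a log2 fold change of 3.94 (SE 0.38, 15.4-fold), rank 52 of 11343 genes tested, and it stayed between 3.84 and 4.18 with any 1 library left out. In Ls174 the values were 0, 1.55 and 7.42 CPM in control and 2.55, 7.11 and 8.87 CPM with HME, which overlap. There the log2 fold change was 0.92 (SE 0.93). It was 2.74 without Ls174 control 3 and 0.43 without Ls174 control 1. The Ls174 response minus that of HepG2 was -3.03 (SE 0.97), and -1.22 without Ls174 control 3. The level in Ls174 control (2.99 ± 3.92 CPM, SD, n = 3) overlapped with that of HepG2 control (4.39 ± 0.873 CPM).

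FABP1, the fatty acid binding protein of liver and of the proximal intestine, set the lines apart more than the treatment did. HepG2 control libraries held 1050, 966 and 663 CPM and treated ones 545, 648 and 415 CPM. With HepG2 scaled by itself the groups were 827 ± 201 and 498 ± 106 CPM (SD, n = 3) and overlapped, while scaled with all 12 libraries they did not. The log2 fold change in HepG2 was -0.73 (SE 0.34, 1.66-fold lower). Ls174 libraries held 0, 1.86 and 10.5 CPM in control and 12.4, 9.25 and 10.5 CPM with HME, which overlap. The untreated lines differed by -7.67 (SE 1.05) on the log2 scale, Ls174 below HepG2. The log2 fold change of FABP1 in Ls174 was 1.26 (SE 0.87), and moved to 3.27 without Ls174 control 3 and to 0.75 without Ls174 control 1. The Ls174 response minus that of HepG2 was 1.97 (SE 0.86), and 3.97 without Ls174 control 3.
The library Ls174 control 3 held 114 CPM of hepatocyte markers, against 0 and 0.31 CPM in the other Ls174 controls and 38.6, 0 and 9.53 CPM in Ls174 HME, and it was also the Ls174 control with the most FABP1 and AGPAT9. FABP1 stood at 10.5 CPM in Ls174 control 3 and at 12.4, 9.25 and 10.5 CPM in the Ls174 HME libraries, in the same order. The part of the hepatocyte markers in the values of FABP1 and AGPAT9 was not tested.

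ACSL3, an acyl-CoA synthetase that sits on growing lipid droplets and activates fatty acids for storage, lay on opposite sides of its control in the lines. HepG2 libraries held 180, 107 and 143 CPM in control and 240, 318 and 291 CPM with HME. Ls174 libraries held 130, 131 and 136 CPM in control and 58.7, 48.4 and 56.8 CPM with HME. Groups overlapped in neither line. The log2 fold change was 1.00 (SE 0.31, 1.99-fold) in HepG2 and -1.28 (SE 0.18, 2.43-fold lower) in Ls174, and the Ls174 response minus the HepG2 response was -2.25 (SE 0.36). That difference stayed between -2.40 and -2.06 with any 1 library left out. The untreated lines stood at 144 ± 36.6 CPM in HepG2 and 132 ± 3.30 CPM in Ls174 (SD, n = 3), with ranges that overlap. In hg19, 99.41% of the counts of ACSL3 lay at chr2:223806246-223809554, a region at exon 17, the last, that reaches past the end of the canonical transcript.

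Over the 12 libraries, after the mean of each line was subtracted from log2 CPM, the Pearson correlation with PLIN2 was 0.91 for CPT1A, 0.81 for AGPAT9, 0.67 for ACADVL, 0.36 for FABP1 and -0.09 for ACSL3. These are descriptions over libraries that share the same treatment contrast. Among 13039 other genes, the 5 with the highest correlation were S100P (0.984), SQSTM1 (0.977), TALDO1 (0.968), DDIT4 (0.962) and CCL20 (0.959). S100P is a calcium-binding protein, SQSTM1 an autophagy receptor, TALDO1 an enzyme of the pentose phosphate pathway, DDIT4 a stress-induced inhibitor of mTORC1, and CCL20 a chemokine. S100P stood at 203 ± 54.6 CPM in HepG2 control and 659 ± 137 CPM with HME, and at 336 ± 28.6 and 1140 ± 109 CPM in Ls174 (SD, n = 3). SQSTM1 stood at 286 ± 108 and 1210 ± 196 CPM in HepG2 and at 170 ± 36.8 and 551 ± 21.5 CPM in Ls174. None of the 5 was in the lists of lipid genes.

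The other genes of the pathway were taken from 9 lists with 134 genes, none of them among the 8. They were tested with edgeR's quasi-likelihood test, with p adjusted by Benjamini-Hochberg over all genes tested. In HepG2, 100 were tested, 4 rose and 3 fell (4.0% and 3.0% of those tested, beside 2.77% and 0.538% of all genes tested). In Ls174, 91 were tested and 1 fell (1.1%, beside 0.866% of all genes tested). The remaining 93 in HepG2 and 90 in Ls174 did not pass by edgeR. The lists were chosen with earlier results of these data known, so their shares beside those of all genes are a description. The balance of directions in HepG2 depended on the test, since DESeq2 put 5 list genes past an adjusted p of 0.05 as higher and 11 as lower, and the study's thresholds 7 as higher and 21 as lower. In Ls174 DESeq2 gave 4 higher and 2 lower, and the study's thresholds 9 in each direction.

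**Figure D4:**
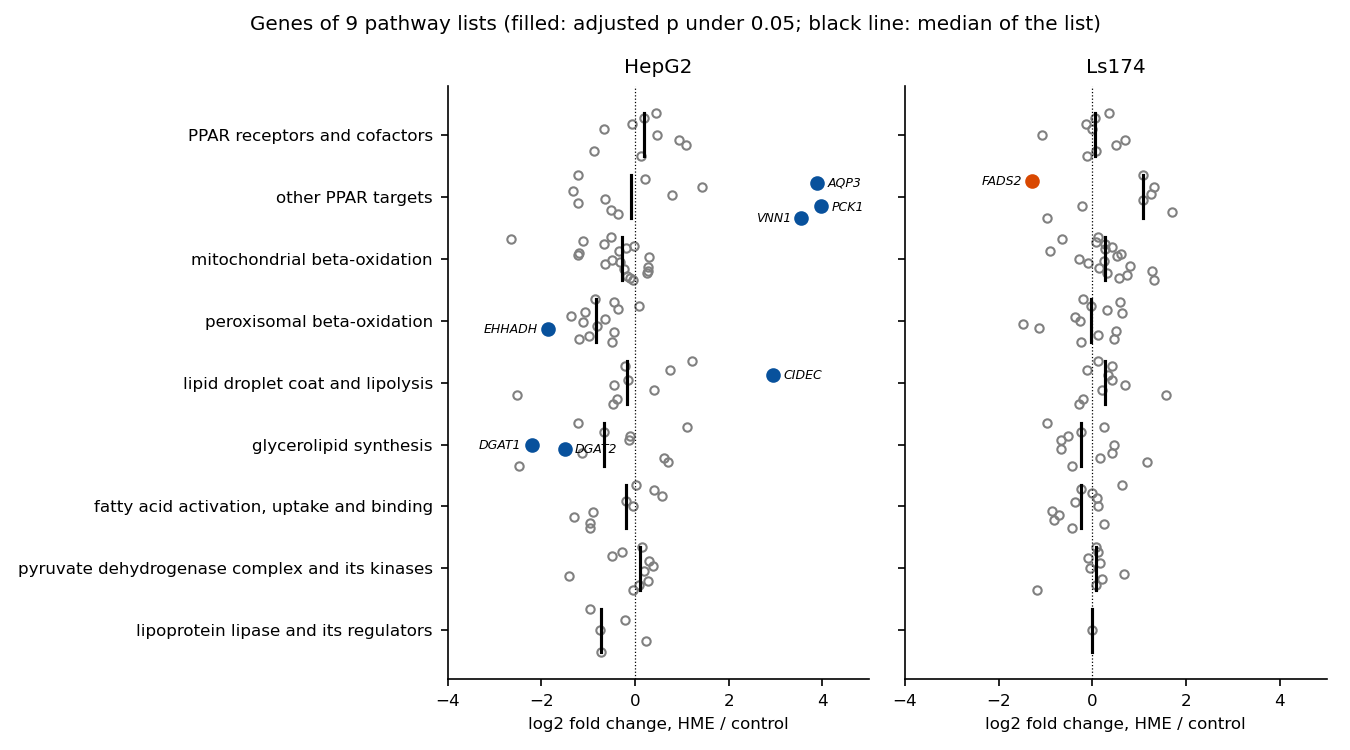
Log2 fold change of HME over control (horizontal axes) for the tested genes of the 9 lists in HepG2 (left) and Ls174 (right), with filled points for an adjusted p under 0.05 (edgeR, over all genes tested), open points for the rest and a black line for the median of a list. AQP3, PCK1, VNN1 and CIDEC lie above 2.9 in HepG2, and most genes of the lists lie between -2 and 2.

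Among the 18 other PPAR targets, 12 were tested in HepG2 and 3 rose by edgeR. By DESeq2 4 passed in HepG2, with CREB3L3 as the fourth and also higher. In Ls174 5 of 8 passed by DESeq2, GK, PCK1 and ME1 as higher and FADS2 and SCD as lower. The median log2 fold change of the list was -0.08 in HepG2 (6 of 12 above 0) and 1.08 in Ls174 (5 of 8 above 0). Over all genes tested the median was -0.04 in HepG2 and near 0 in Ls174. AQP3, a channel for water and glycerol, stood at 8.87, 4.98 and 12.5 CPM in HepG2 control and 96.6, 130 and 167 CPM with HME (log2 fold change 3.89, SE 0.41, adjusted p = 0.00208, edgeR). PCK1, which commits carbon to glucose and glycerol synthesis, went from 10.8, 3.74 and 10.9 CPM to 84.7, 145 and 174 CPM (log2 fold change 3.97, SE 0.47, adjusted p = 0.00251, edgeR). For both genes every treated library exceeded every control, and both kept an adjusted p under 0.05 with any 1 library left out. VNN1, a pantetheinase, held 0.538, 0 and 2.42 CPM in control and 15.8, 8.84 and 12.6 CPM with HME (log2 fold change 3.55, SE 0.72, adjusted p = 0.0295, edgeR). VNN1 had no count in any Ls174 library, and its call held in 2 of 6 fits with 1 HepG2 library left out, those without control 2 or control 3.
In Ls174, FADS2, a fatty acid desaturase, fell from 92.0, 80.4 and 89.9 CPM to 37.2, 31.6 and 39.4 CPM (log2 fold change -1.28, SE 0.19, adjusted p = 0.0331, edgeR). This call was lost with any library but Ls174 control 1 left out, with adjusted p up to 0.274, and the direction was kept. In HepG2 the log2 value of FADS2 was -1.33 (SE 0.43, adjusted p = 0.12, edgeR). PCK1 in Ls174 had a log2 value of 1.70 (SE 0.43, adjusted p = 0.125, edgeR) and AQP3 one of 1.08 (SE 0.37, adjusted p = 0.26), neither past the threshold by edgeR, while PCK1 passed by DESeq2 (adjusted p = 0.00449).
The response of AQP3 differed between the lines by -2.77 (SE 0.58, adjusted p = 0.044, edgeR interaction test), Ls174 below HepG2, and by edgeR no other of the 108 list genes tested for the interaction passed. By DESeq2 PCK1 (adjusted p = 0.0375) and DGAT1 (adjusted p = 0.0104) passed as well. The AQP3 call held in 1 of 12 fits with a library left out, that without Ls174 control 1. For list genes with few or no counts in 1 line, the interaction test could not tell whether the responses differ. VNN1, without a count in Ls174, had an SE of 8393.7 in it, and CIDEC one of 2.37.

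Of the lipid droplet list, CIDEC, which fuses droplets into larger ones, was the gene called by edgeR in HepG2 among 10 tested. It stood at 8.6, 8.72 and 13.7 CPM in control and at 75.2, 72.8 and 88.3 CPM with HME, without overlap (log2 fold change 2.94, SE 0.33, adjusted p = 0.00229, edgeR), and kept that call with any 1 library left out. In Ls174 CIDEC was at most 1.09 CPM. CIDEC is also an adipocyte marker. The other adipocyte markers were near 0: ADIPOQ stayed at or below 0.707 CPM in every library and LEP had no count. PLIN5, a coat protein of the PLIN2 family in oxidative tissues, stood at 9.95, 19.9 and 6.47 CPM in HepG2 control and 3.17, 0.707 and 2.40 CPM with HME, without overlap, a value of -2.52 on the log2 scale (SE 0.67) that did not pass by edgeR (adjusted p = 0.0716) and passed by DESeq2 (adjusted p = 0.00957). PLIN3, another coat protein of that family, had a log2 value of 0.41 (SE 0.43) in HepG2 and 0.21 (SE 0.25) in Ls174, with adjusted p of 0.6 and 0.74 (edgeR), and HILPDA, a droplet protein that inhibits lipolysis, -0.45 (SE 0.39) and 0.34 (SE 0.40). In Ls174, 0 of 10 genes of the lipid droplet list passed (edgeR, 1 at an unadjusted p under 0.05, 0 by DESeq2).

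Enzymes of triglyceride synthesis other than AGPAT9 had a median log2 fold change of -0.67 in HepG2 (11 tested, 3 above 0), where the median of all genes was -0.04. Both enzymes that add the last fatty acid fell. DGAT1 stood at 154, 298 and 74.4 CPM in control and 32.4, 42.4 and 41.4 CPM with HME (log2 fold change -2.20, SE 0.51, adjusted p = 0.0493, edgeR). DGAT2 stood at 47.9, 41.1 and 50.9 CPM and at 16.6, 15.6 and 16.8 CPM (log2 fold change -1.50, SE 0.29, adjusted p = 0.0247, edgeR). In neither gene did the groups overlap. The highest control value of DGAT1 came from HepG2 control 2, and without that library its log2 fold change was -1.50 (adjusted p = 0.024, edgeR). The call of DGAT1 held in 2 of 6 fits with a library left out (without control 2 or control 3) and that of DGAT2 in 1 of 6 (without control 2). GPAM, the mitochondrial enzyme with the same reaction as AGPAT9, had a log2 value of -1.14 (SE 0.35, adjusted p = 0.104, edgeR) in HepG2. GPAM, AGPAT1 and LPIN3 passed there by DESeq2, each lower. In Ls174, 0 of 11 genes of this list passed (edgeR, 3 at an unadjusted p under 0.05, 0 by DESeq2).

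**Figure D5:**
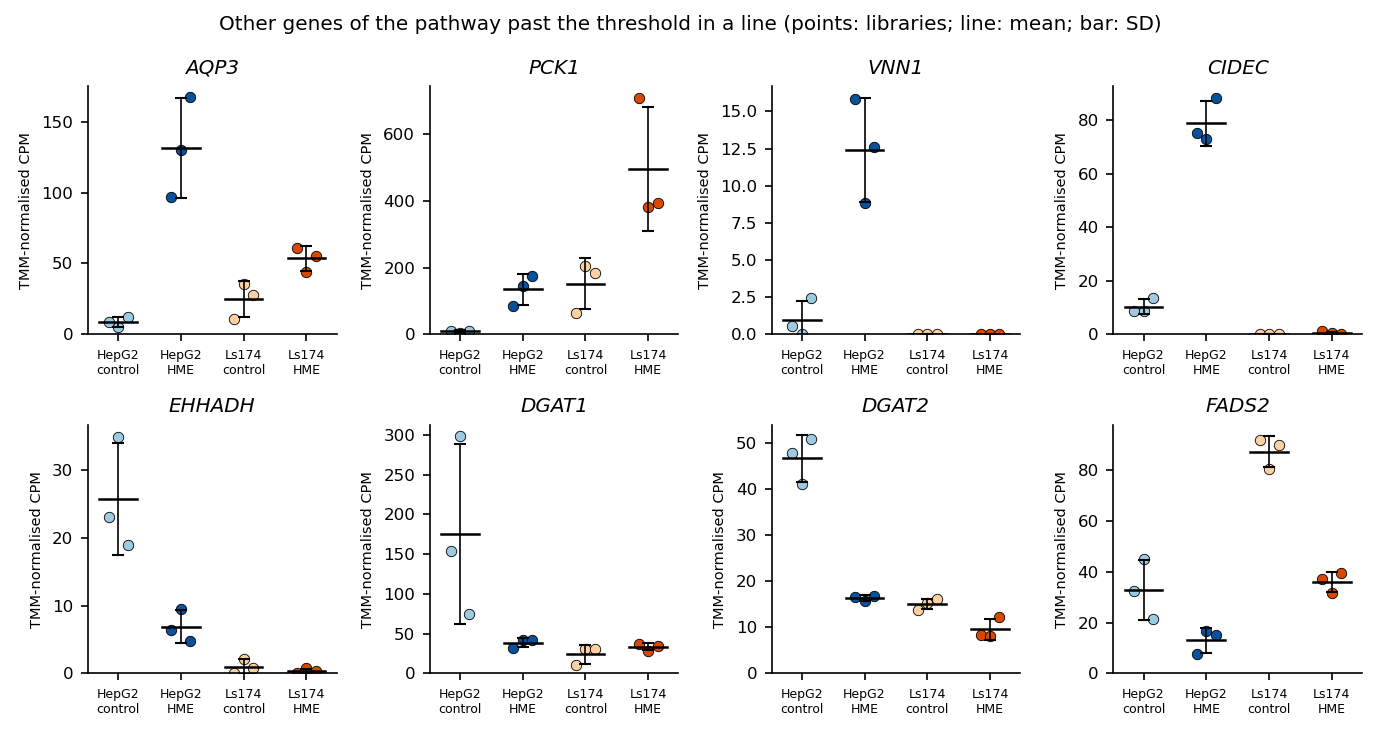
Level of the 8 other pathway genes past the threshold in a line, in CPM after TMM scaling of all 12 libraries (vertical axes, linear from 0), with points for libraries, a line for the mean of 3 and a bar for the SD. AQP3, PCK1, VNN1 and CIDEC are higher and EHHADH, DGAT1 and DGAT2 lower with HME in HepG2, while FADS2 is lower in Ls174.

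Of 22 other genes of mitochondrial beta-oxidation, 20 were tested in HepG2 and 19 in Ls174, and 0 passed an adjusted p under 0.05 (edgeR) in either, while 2 and 6 had an unadjusted p under 0.05 and 1 in each passed by DESeq2 (ACAD10 in HepG2 and ETFDH in Ls174). Their median log2 fold change was -0.28 in HepG2 (4 of 20 above 0) and 0.28 in Ls174 (15 of 19 above 0). The median of all genes was -0.04 in HepG2 and near 0 in Ls174. In the interaction test 0 of 20 passed (edgeR, 2 at an unadjusted p under 0.05, 0 by DESeq2). The Ls174 response minus the HepG2 response was above 0 for 20 of 20, with a median of 0.6 beside 0.04 for all genes. The share of all genes above 0 is not given. These genes were measured in the same libraries, so their signs are not independent of each other, and the list as a whole was not tested. HADHA, of the trifunctional protein, stood at 151, 140 and 176 CPM in HepG2 control and 173, 132 and 106 CPM with HME. CPT2, the inner-membrane partner of CPT1A, had a log2 value of -1.22 (SE 0.74, adjusted p = 0.352, edgeR) in HepG2 and 0.61 (SE 0.29, adjusted p = 0.394) in Ls174.
Of 14 genes of peroxisomal beta-oxidation tested in HepG2, 1 had a log2 fold change above 0. The median was -0.84, beside -0.04 for all genes, and this list was not tested as a whole either. EHHADH, the bifunctional enzyme of that pathway and itself a PPARA target, fell from 23.1, 34.9 and 19 CPM to 6.33, 9.54 and 4.80 CPM (log2 fold change -1.85, SE 0.42, adjusted p = 0.0473, edgeR). By edgeR no other gene of the list passed, and by DESeq2 AMACR passed as well (adjusted p = 0.0193). The edgeR call of EHHADH held in 1 of 6 fits with a library left out, that without control 2. In Ls174 the median of the peroxisomal list was -0.02 over 13 genes, with 0 called (edgeR, 4 at an unadjusted p under 0.05, 0 by DESeq2).

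Of the receptors and cofactors, 9 of 11 were tested in each line and 0 passed an adjusted p under 0.05 for HME (edgeR, 2 in HepG2 and 1 in Ls174 at an unadjusted p under 0.05, 0 by DESeq2). PPARA held 54.9, 81.6 and 42.0 CPM in HepG2 control and 30.5, 32.9 and 49.2 CPM with HME (log2 fold change -0.67, SE 0.37), and had a log2 fold change of 0.00 (SE 0.34) in Ls174. PPARG held 8.85, 36.9 and 45.6 CPM in Ls174 control and 51.4, 60.5 and 39.4 CPM with HME, which overlap. Between the untreated lines PPARG was higher in Ls174 (log2 difference 3.15, SE 0.69, adjusted p = 0.00949, edgeR) and RXRA, a retinoid partner, lower (log2 difference -1.77, SE 0.36, adjusted p = 0.00615, edgeR). Both of these calls held with any 1 of the 6 libraries left out.

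Relatives of PDK4, ACSL3, FABP1 and ANGPTL4 are given in turn. The pyruvate dehydrogenase complex and its other kinases had a median log2 fold change of 0.12 in HepG2 (10 tested) and 0.07 in Ls174 (9 tested), with 0 called (edgeR, 1 and 0 at an unadjusted p under 0.05, and by DESeq2 1 in HepG2, PDK2, and 0 in Ls174). PDK1, a kinase of the same family as PDK4, had 0.20 (SE 0.34) and 0.68 (SE 0.39). Of the other genes that activate, take up and bind fatty acids, 9 were tested in HepG2 and 11 in Ls174 with 0 called (edgeR, 1 in each line at an unadjusted p under 0.05, 0 by DESeq2). ACSL4, the nearest relative of ACSL3, had a log2 value of 0.41 (SE 0.38, adjusted p = 0.561, edgeR) in HepG2 and -0.25 (SE 0.20, adjusted p = 0.608) in Ls174. ACSL5 had 0.57 (SE 0.28) and 0.00 (SE 0.28). Lipoprotein lipase and its regulators other than ANGPTL4 had 5 genes tested in HepG2 and 1 in Ls174, and 0 passed (edgeR, 1 and 0 at an unadjusted p under 0.05, and by DESeq2 1 in HepG2, APOA5, and 0 in Ls174).
Between the untreated lines, 101 of the 134 list genes were tested, of which 10 were higher and 27 lower in Ls174 at an adjusted p under 0.05 (edgeR), 9.9% and 26.7% of those tested, beside 9.33% and 14.2% of all genes tested.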

How the data were processed

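RNA of 12 libraries was read with a 3′ mRNA kit. Per the labels and methods, the authors aligned reads with Hisat2 to hg19 (GRCh37), the notes also name Bowtie2 and Trimmomatic, and metaseqR2 counted them. The deposited values are raw counts per 3′ region, without normalization, and how reads with several alignments or on the opposite strand were treated is not given in the sources used here. Counts were summed per gene and analysed with edgeR 4.0.16 in R 4.3.3 (TMM, filterByExpr, quasi-likelihood F test, Benjamini-Hochberg over all genes tested), each line by itself, the interaction on all 12 libraries. The study names a binomial test, and edgeR, which models the spread between replicates, was used in its place. CPM in the text are TMM-scaled over 12 libraries unless stated. SE was derived from the F statistic. Python 3.11.15, scipy 1.17.1 and matplotlib 3.10.9 served for exact tests and figures. The 8 genes, the 9 pathway lists and the 6 marker lists were chosen with earlier results of these data known. Named are the 8 genes, list genes past the threshold, at most 3 others per list by level or protein family, and the 5 genes most like PLIN2. No replicate pair was a duplicate (chi-square per degree of freedom 4.5 to 56.2). The procedure was tested on simulated data. One of the 4 endothelial markers was not analysed, and 2 genes first placed in the pathway lists are not reported here and left out of the counts for the lists. DESeq2 1.42.0, other scalings and filters, the replicate block, the main region alone and each library left out were the alternatives.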

Additional observations from a re-analysis of the deposited data

Results flagged for a closer look

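The response of ACSL3 to HME differed between the lines: the Ls174 response minus the HepG2 response was -2.25 on the log2 scale (SE 0.36), with all 3 treated libraries above the controls in HepG2 and all 3 below them in Ls174. ACSL3 was chosen with this contrast known, so the value is a description.

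Among the genes of the lipid lists, the response of AQP3 differed between the lines by edgeR, by -2.77 on the log2 scale (SE 0.58, adjusted p = 0.044, edgeR interaction test), with treated libraries above all controls of their line in both lines. It lost the threshold with library-size scaling (adjusted p = 0.0864) and with upper-quartile scaling (adjusted p = 0.0541). By DESeq2 PCK1 (adjusted p = 0.0375) and DGAT1 (adjusted p = 0.0104) also passed.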

How the results depend on the processing

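All counts are of genes with an adjusted p under 0.05 (edgeR unless stated). In HepG2, the 375 genes became 2517 with the study's thresholds, 1033 with DESeq2, 1407 with every gene with a count, 188 with at least 10 counts in every library, 807 in 1 fit of 12 libraries, and 95 to 921 with a library left out (921 without control 2, 142 without HME 2). In Ls174, the 134 genes became 1353, 434 and 604 under the first 3 of these, and 0 to 979 with a library left out (979 without control 1, 0 without HME 2, where 854 had an unadjusted p under 0.05). For the interaction, 84 became 49 with library-size scaling, 380 with DESeq2, 367 with every gene with a count, 46 with at least 10 counts, and 17 to 143 with a library left out. Between the untreated lines 2798 became 912 with at least 10 counts and 2134 to 3367 with a library left out. Same-numbered replicates did not deviate together (correlations of -0.17 to 0.09 in HepG2 and -0.05 to -0.01 in Ls174). With 3 replicates this cannot show whether cultures of the same number were set up together, which the labels do not state. With the replicate block, Ls174 gave 0 genes (1192 at an unadjusted p under 0.05), the interaction 16, HepG2 349 and the untreated lines 1890.

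Directions turned for values near 0: PLIN2 between the responses (0.04, -0.14 to 0.24 with a library left out), AGPAT9 between the untreated lines (-0.49, -2.33 to 0.01), and ACSL3 between them (-0.15, 0.04 with library-size scaling, -0.32 to 0.02 with a library left out). Of 352 alternative values for the 8 genes, 306 kept direction and side of the threshold. The cause was not tested. Library-size scaling moved the median of all genes in HepG2 from -0.04 to -0.20. Depth limits PDK4 and ANGPTL4, and FABP1 and AGPAT9 in Ls174.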
